A study of Homo sapiens with 5 samples.

Results

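The CCN genes are a family of 6 protein-coding genes, CCN1 to CCN6, and their surroundings were searched for binding sites of the transcription factor SF-1, which the gene NR5A1 encodes. A site was assigned to a gene when the centre of its ChIP-seq peak lay within 200 kb of the gene body on the hg19 genome build. By this rule 11 of the 30372 listed peaks belonged to the family, at 8 distinct positions, and all of them lay near CCN5 or CCN6. No peak was found within 200 kb of CCN1, CCN2, CCN3 (formerly NOV) or CCN4 in any list.

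SF-1 (Steroidogenic Factor-1) is a nuclear receptor that controls steroid hormone genes in the adrenal cortex. Chromatin came from the cells named H295R/TR SF-1, derived as a single subclone from the established human adrenocortical tumor line H295R, where doxycycline switches on extra SF-1 from a transgene. Cells were left without doxycycline (basal SF-1) or grown in it for 3 days (overexpressed SF-1), and chromatin of each dosage was precipitated with an anti-SF-1 antibody from Millipore or from Perseus Proteomics. Each of the 4 lists was called by the authors on 3 pooled libraries against input DNA. Each group is thus 1 list without replicates, no test between lists was possible, and the read depth behind each list is unknown. Doxycycline itself and the extra SF-1 cannot be told apart in this design, because no doxycycline-treated cells without the transgene were among the groups. The chromatin was from bulk cultures, in which a site bound in few cells and a site bound weakly in all cells cannot be told apart.

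CCN proteins are secreted, cysteine-rich proteins of the extracellular matrix. They do not serve mainly as structural fibres but change how cells attach, migrate and respond to growth factors, largely through integrins. CCN1 (formerly CYR61) and CCN2 (formerly CTGF) are induced rapidly by serum, TGF-beta and the YAP/TEAD pathway, CCN4 and CCN5 (formerly WISP1 and WISP2) were first found as genes responding to Wnt signalling, and CCN6 (formerly WISP3) is known for its part in cartilage maintenance. CCN5 differs from the others in lacking the carboxy-terminal cystine-knot module.

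The sequences of the sites were compared with the SF-1 consensus. The form searched, on both strands, was a C or T, then CAAGG, then a C or T, then C, then an A or G. Its inner stretch of 7 letters, CAAGGNC with C or T at N, is called the core here and lies within every copy of the consensus. Over whole lists, 16.0% of basal Millipore peaks held the consensus and 20.7% the core, against 10.9% and 20.2% of overexpressed Millipore peaks. Among basal Perseus peaks the shares were 21.6% and 27.7%, and among overexpressed Perseus peaks 17.2% and 26.2%. Of the 8 positions near CCN genes, 2 held the consensus and 2 more the core alone. The site inside CCN6 is shown whole because it held the consensus copy nearest to the CCN6 transcription start site (TSS), the stretch at the CCN5 start because its place was found in 3 lists, the site in LAMA4 because it was found at both dosages, and the site next to PABPC1L because it held the other consensus copy. Sequences are from the plus strand of hg19, and capitals mark the consensus, or the core where only the core was present.
Site inside CCN6, chr6:112386001-112386299: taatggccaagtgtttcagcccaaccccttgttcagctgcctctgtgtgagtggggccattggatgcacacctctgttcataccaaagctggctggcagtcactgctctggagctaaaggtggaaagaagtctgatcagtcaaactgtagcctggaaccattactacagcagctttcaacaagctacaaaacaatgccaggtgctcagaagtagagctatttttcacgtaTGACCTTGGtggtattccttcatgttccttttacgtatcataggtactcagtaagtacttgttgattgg
Core at the start of CCN5, chr20:43343517-43343543: gagcttaggaGACCTTGggtcagctct
Site in LAMA4, chr6:112484651-112484849: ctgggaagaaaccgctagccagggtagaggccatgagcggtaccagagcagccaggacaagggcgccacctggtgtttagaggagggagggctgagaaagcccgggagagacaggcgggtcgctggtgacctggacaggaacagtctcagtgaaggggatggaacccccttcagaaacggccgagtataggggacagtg
Site next to PABPC1L, chr20:43538501-43538599: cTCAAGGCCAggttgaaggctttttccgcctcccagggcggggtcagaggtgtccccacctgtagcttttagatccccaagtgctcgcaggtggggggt
The copy inside CCN6 reads CCAAGGTCA on the minus strand, and the copy next to PABPC1L reads TCAAGGCCA on the plus strand. The core at the CCN5 start reads CAAGGTC on the minus strand.

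With the Millipore antibody the number of peaks near CCN genes was 1 at basal and 7 at overexpressed dosage. With the Perseus antibody it was 2 at basal and 1 at overexpressed dosage. As a share of the list these peaks made up 0.0228% (95% Wilson interval 0.00402 to 0.129%) and 0.0588% (0.0285 to 0.121%) of the Millipore lists, and 0.0302% (0.00829 to 0.110%) and 0.0134% (0.00237 to 0.0760%) of the Perseus lists. The intervals cover counting error over peaks only and take peaks as independent, although 5 of the 7 overexpressed Millipore peaks lay near CCN5. They overlapped within either antibody, which is not a test between lists. Of all protein-coding genes, 69.2% had more and 9.41% fewer Millipore peaks at overexpressed dosage, and 38.3% had more and 25.8% fewer Perseus peaks. The Millipore list as a whole was 2.71-fold longer at overexpressed than at basal dosage and the Perseus list 1.13-fold longer.

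Counted by gene, 1 of the 6 CCN genes had a basal Millipore peak, where 52.8% of all 20163 protein-coding genes had one by the same rule. At overexpressed dosage 2 of the 6 had a Millipore peak, against 80.3% of all genes. In the Perseus lists 1 of 6 had a peak at each dosage, against 66.8% of genes at basal and 69.9% at overexpressed dosage. In every list the share of CCN genes with a peak within 200 kb was thus below that of all genes, over 6 genes and with no test. The window widens with the gene body, which was 3197 bp (CCN2) to 40652 bp (CCN4) long in the family. Body length was not compared with that of all genes. Of all protein-coding genes 8.34% lacked a peak in every list, and 4 of the 6 CCN genes were among them. The 4 lists together placed 8 peaks near CCN5 and 3 near CCN6, where the median gene had 6 and the middle 50% of genes had between 3 and 12.

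**Figure D1:**
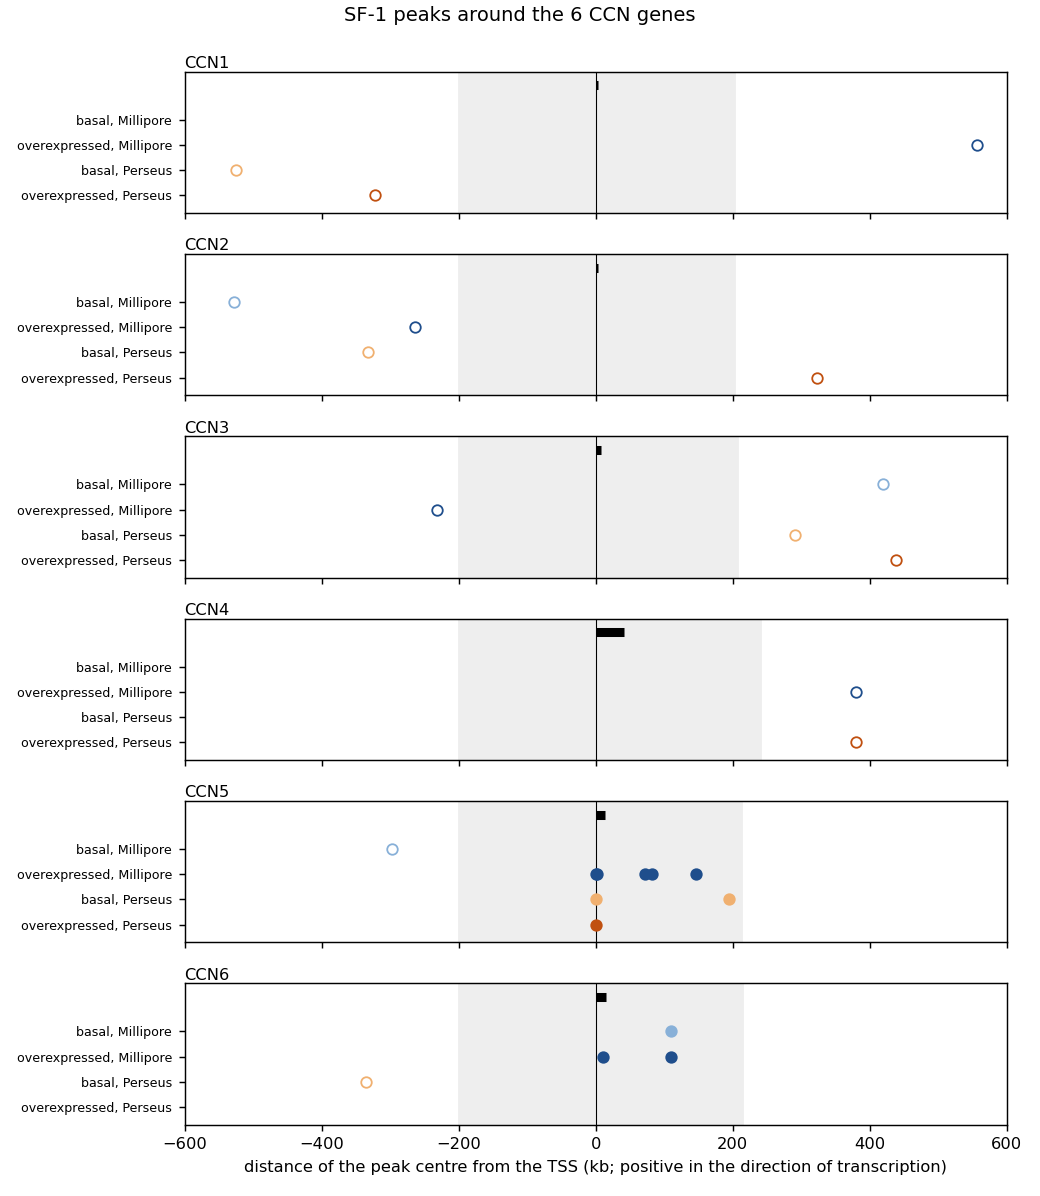
Peaks around the 6 CCN genes, 1 panel per gene with a row per list; the horizontal axis is the distance of the peak centre from the TSS in kb, the black bar is the gene body and the grey band the 200 kb window. Filled circles are the 11 peaks in the windows, all on the downstream side of the CCN5 or CCN6 start; open circles are the nearest peak of a list that has none in the window, drawn where it lies within the range of the axis.

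CCN5 lies at chr20:43343485-43357150 on the plus strand and was the only family member with peaks at its own start. The start site was bound in 3 of the 4 lists. The overexpressed Millipore peak, chr20:43343651-43343899, was centred 290 bp after the TSS and ranked 2516 of 11910. The basal Perseus peak, chr20:43343501-43343899, was centred 215 bp after the TSS and ranked 3228 of 6616. The overexpressed Perseus peak, chr20:43343451-43343749, was centred 115 bp after the TSS and ranked 202 of 7453, the best place of any peak near a CCN gene. The basal Millipore list had no peak there, and its nearest peak to CCN5 lay 297 kb from the gene body, in an intron of HNF4A, which encodes a nuclear receptor of liver, gut and pancreas.

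The 3 peaks had 99 bp in common, from 166 to 264 bp after the TSS, within annotated 5′ untranslated sequence of CCN5 and in an intron of the antisense long noncoding gene KCNK15-AS1. Which of these genes a site at this place would act on cannot be read from peak positions. The overexpressed peaks of the Millipore and Perseus lists overlapped by those 99 bp alone, or 39.8% of the shorter peak, whereas the overexpressed Millipore and basal Perseus peaks shared 249 bp. The core at this place was centred 45 bp after the TSS, inside both Perseus peaks and outside the Millipore peak. No copy of the full consensus lay within 1 kb of the CCN5 TSS. Sharing of this kind was found for a minority of peaks: 8.22% of overexpressed Millipore peaks overlapped a basal and 11.5% an overexpressed Perseus peak. In the other direction 14.8% of basal and 18.5% of overexpressed Perseus peaks overlapped an overexpressed Millipore peak, and 7.65% of basal and 447 of the 7453 overexpressed Perseus peaks a basal Millipore peak. Between the Perseus lists 29.5% of basal peaks and 26.2% of overexpressed peaks overlapped.

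A peak centred within 1 kb of the TSS was uncommon among all protein-coding genes, at 1.02% in the basal Millipore, 8.19% in the overexpressed Millipore, 9.56% in the basal Perseus and 10.5% in the overexpressed Perseus list. The pattern of CCN5, a peak at the TSS in 3 lists and none in the basal Millipore list, was shared by 361 genes or 1.79%, and 2.17% had a TSS peak in at least 3 lists. The other 5 CCN genes had no peak within 1 kb of the TSS in any list. The rank of the CCN5 start site went from 48.8% of the list length in the basal Perseus list to 2.71% in the overexpressed one. Of the 1949 basal Perseus peaks that overlapped an overexpressed Perseus peak, 163 or 8.36% moved up by as much or more, and the median moved by 0.0399 percentage points. A peak could move up that far only if its basal rank was past 46.1% of the list. The share among those peaks alone was not computed, so 8.36% does not show how rare the move was among them. The quantity behind the ranks is not stated, so the move of the CCN5 start site is a change of place in a list and not a fold change of binding.

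The remaining peaks near CCN5 were each found in 1 list, and they are named outside the rule for naming peaks, a choice made after their values were seen. In the overexpressed Millipore list a second peak, chr20:43345301-43345499, rank 2687, was centred 1915 bp after the TSS in an intron of CCN5, with 134 of its 199 bp in an exon of KCNK15-AS1. Peaks at chr20:43415051-43415149, rank 8881, and chr20:43425001-43425149, rank 7290, lay in an intron of RIMS4, a gene for a synaptic vesicle release protein. The peak at chr20:43490201-43490299 ranked 11850 of 11910, among the last of the list, and was intergenic with the TSS of YWHAB, a 14-3-3 protein gene, nearest. The second basal Perseus peak, chr20:43538501-43538599, rank 3803, lay 195065 bp downstream of the CCN5 TSS but 151 bp from that of PABPC1L, which encodes a poly(A)-binding protein. Apart from the intronic peak these sites were therefore nearer to the start of another coding gene than to that of CCN5. Of all genes, 27.5% had 5 or more overexpressed Millipore peaks in the window, as CCN5 did, and 43.7% had 2 or more basal Perseus peaks.

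CCN6 lies at chr6:112375278-112390889 on the plus strand and had 3 peaks, all with the Millipore antibody. The peak inside the gene, chr6:112386001-112386299, was present at overexpressed dosage alone, with rank 3604 of 11910. Its first 200 bp were coding sequence and the rest intron. The consensus copy it held lay in the intron, 10957 bp after the TSS, and was the copy nearest to the CCN6 TSS in the whole window.

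The second CCN6 site, chr6:112484651-112484849, lay 93.8 kb beyond the CCN6 gene body in an intron of LAMA4, which encodes a laminin chain of vessel basement membranes. It ranked 1028 of 4393 at basal dosage and 1134 of 11910 at overexpressed dosage, where the peak was 199 bp wide and contained the whole basal peak. This was the sole position near a CCN gene found at both dosages with the Millipore antibody, whereas 12.4% of all basal Millipore peaks were found again and 4.53% of overexpressed ones had been present before. In percent of list length these ranks were 23.4% and 9.52%, in lists that differed 2.71-fold in length. The rank itself was slightly later at overexpressed dosage. Of the 544 basal Millipore peaks that overlapped an overexpressed Millipore peak, 185 moved up by as much or more in percent of list length. The median moved up by 0.712 percentage points. A peak could move up that far only if its basal rank was past 13.9% of the list. The CCN6 start was only the fifth nearest coding TSS to the LAMA4 site, and the site held neither consensus nor core. Neither CCN6 site overlapped a Perseus peak. Among all basal Millipore peaks 11.6% overlapped a basal and 10.2% an overexpressed Perseus peak. Among overexpressed Millipore peaks, the list that held both CCN6 sites, these shares were 8.22% and 11.5%. The nearest Perseus peaks lay 336 kb from the CCN6 gene body at basal and 700 kb at overexpressed dosage.

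**Figure D2:**
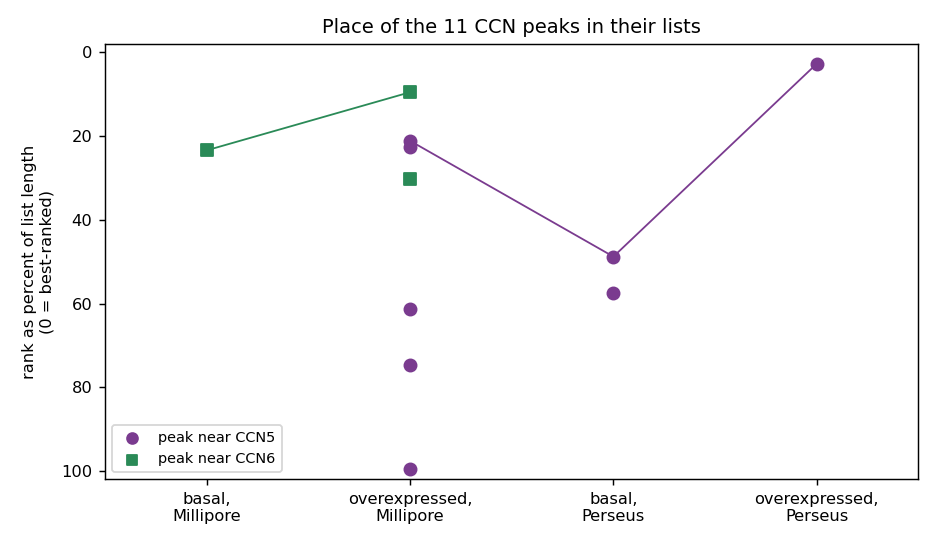
Place of each of the 11 peaks in its list; the vertical axis is the rank as a percent of the list length, with the best-ranked at the top, circles are peaks near CCN5 and squares peaks near CCN6. Lines join overlapping peaks of different lists, the CCN5 start site in 3 lists and the LAMA4 site near CCN6 in 2.

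Of the 8 positions near the family, 6 were thus found in 1 list, 1 in 2 lists, 1 in 3 lists and 0 in all 4. Over all peaks, the share that overlapped a peak of any other list was 20.9% and 16.6% in the basal and overexpressed Millipore lists and 37.7% and 37.9% in the corresponding Perseus lists. The GC content of the 11 peaks ranged from 46.2% to 62.4%. The basal Millipore peak had 62.4% against a median of 45.6% in its list, and the 7 overexpressed Millipore peaks had 46.2% to 61.3% around a median of 55.6%. The basal Perseus peaks had 55.6% and 61.6% against a median of 51.0%, and the overexpressed Perseus peak 60.5% against 54.8%. By rank, 7 of the 11 peaks were in the better 50% of their list.

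CCN3 lies at chr8:120428686-120436674. Its nearest basal Millipore peak was 411 kb from the gene body, at rank 1544, in an intron of DSCC1. The nearest overexpressed Millipore peak was on the other side, 232 kb upstream in an intron of MAL2, at rank 3088. In the Perseus lists the nearest peaks lay 283 kb away at basal dosage, rank 6094 of 6616, and 431 kb away at overexpressed dosage, rank 4577 of 7453, both downstream and both with a copy of the consensus. No 2 of these 4 peaks overlapped, so the lists named a different nearest site each time. Between 71.9% and 82.7% of protein-coding genes had a nearer peak in the respective list.

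CCN4, at chr8:134203282-134243933, stood farthest from the basal sites. Its nearest basal peak lay 2464 kb away with the Millipore and 2833 kb away with the Perseus antibody, farther than for 96.9% and 96.8% of genes. At overexpressed dosage both antibodies had their nearest peak at the same place in an intron of ST3GAL1, a sialyltransferase gene, 339 kb from the gene body. These peaks, chr8:134582851-134583099 with Millipore and chr8:134582751-134582999 with Perseus, ranked 4074 and 5591. No basal peak overlapped either of them.

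CCN1, at chr1:86046444-86050272, had its nearest Millipore peak 1194 kb away at basal and 552 kb away at overexpressed dosage, and its nearest Perseus peak 525 kb and 322 kb away. For CCN2, at chr6:132269316-132272512 on the minus strand, the Millipore distances were 528 kb and 264 kb and the Perseus distances 333 kb and 320 kb. No nearest peak of CCN1 or CCN2 was found in more than 1 list. CCN2 and CCN6 are on the same chromosome but 19.9 Mb apart, and CCN3 and CCN4 13.8 Mb apart, so no window was shared.

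Over the family the nearest Millipore peak was closer at overexpressed than at basal dosage for 6 of 6 genes, where 72.9% of all protein-coding genes behaved so. With both lists at the length of the shorter one it was closer for 5, a setting in which the share of all genes was not computed. With the Perseus antibody it was closer for 3, farther for 2 (CCN3 and CCN6) and inside the gene body at both dosages for CCN5, against 48.5% of all genes closer. A gene with a basal peak inside its body could not count as closer. No CCN gene had such a basal Millipore peak, and CCN5 alone had such a basal Perseus peak. The shares of all genes include such genes and were not computed without them.

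**Figure D3:**
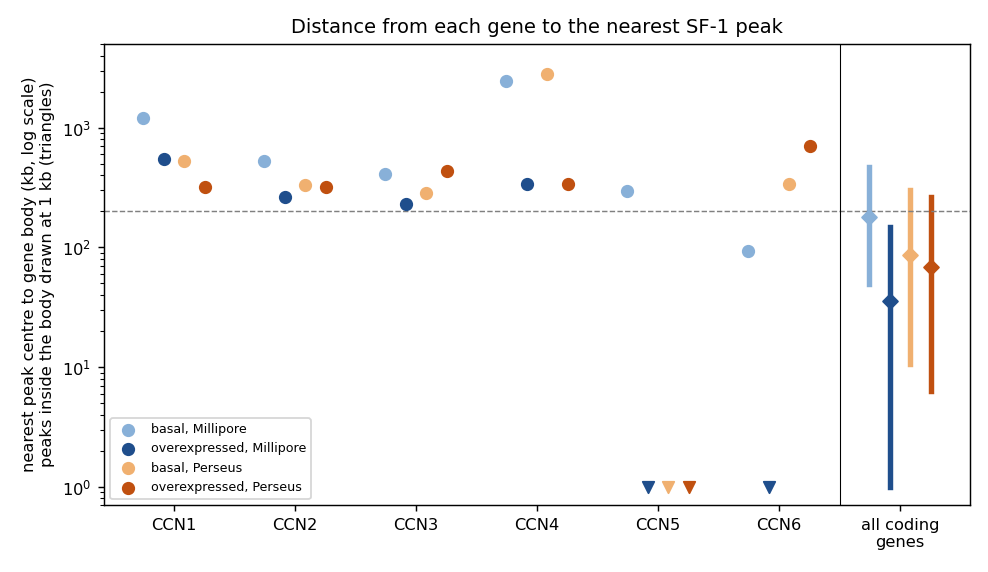
Distance in kb (log scale) from each CCN gene body to the nearest peak centre of each list, with peaks inside the body drawn at 1 kb as triangles; at the right, diamonds and bars give the median and the 25th to 75th percentile over all protein-coding genes, with values under 1 kb drawn at 1 kb. The dashed line marks 200 kb, and CCN1 to CCN4 lie above it in all 4 lists.

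Copies of the SF-1 consensus were present in the windows of all 6 genes, with or without peaks. The windows held 28 copies for CCN1, 18 for CCN2, 22 for CCN3, 54 for CCN4, 63 for CCN5 and 36 for CCN6. Of these, 1 copy near CCN5 and 1 near CCN6 lay under a peak of any list. The share of copies under a peak was not computed over all genes, so these counts have no background. The density around CCN4 was 123 copies per Mb, higher than for 88.2% of protein-coding genes, and around CCN5 it was 152 per Mb, higher than for 97.5%. Around CCN2 and CCN3 it was 44.6 and 53.9 per Mb, higher than for 7.69% and 17.1% of genes. CCN1 had 69.3 per Mb and CCN6 86.6, and the median gene 78.9. Thus 3 of the 4 genes without a peak were below the median density and CCN4 above it, while CCN5 and CCN6 were above it. The part of consensus density in the number of peaks was not tested.

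Over all genes the median number of peaks rose from 1 below 20 copies per Mb to 14 at 160 to 180, and was 9 in the 53 genes at 180 to 200, the highest step with at least 20 genes. Among the 1669 genes with 120 to 140 copies per Mb, where CCN4 falls, 2.10% had no peak in any list, against 15.3% of the 4052 genes with 40 to 60, where CCN2 and CCN3 fall. The windows of CCN1, CCN2 and CCN3 were also low in GC, at 38.2% to 39.2% where the median gene had 44.1%, and poor in neighbours, with at most 2 other coding starts where the median was 6. The window of CCN4 had 46.6% GC and 2 other coding starts, and that of CCN5 46.6% and 7. The part of GC content and gene density in the number of peaks was not tested.

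**Figure D4:**
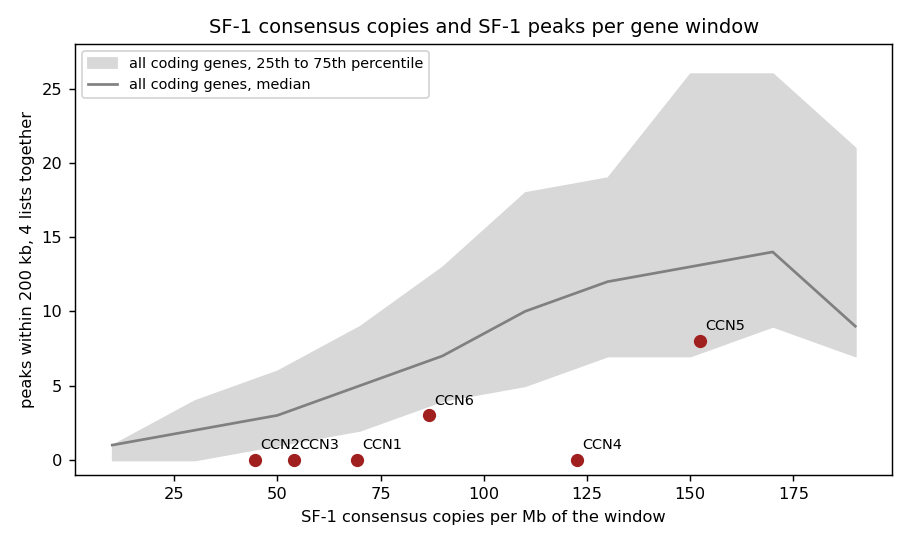
Number of peaks within 200 kb, over the 4 lists together, against SF-1 consensus copies per Mb of the window; points are the 6 CCN genes, and the line and band are the median and the 25th to 75th percentile of all protein-coding genes in steps of 20 copies per Mb. CCN4, with 123 copies per Mb and 0 peaks, lies below the band, as do CCN1, CCN2, CCN3 and CCN6, while CCN5, with 152, lies within it.

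Other genes of CCN biology were taken as a list of 34, with 14 receptors and co-receptors of CCN proteins and 20 genes that regulate CCN1 and CCN2 or respond with them. By the 200 kb rule, a basal Millipore peak was present for 20 of the 34 (52.8% of all genes) and an overexpressed one for 29 (80.3% of all genes). A basal Perseus peak was present for 27 (66.8% of all genes) and an overexpressed one for 25 (69.9% of all genes). In every list the share of the 34 was above that of all genes, with no test. Peaks in all 4 lists were present for 15 of the 34, where 35.6% of all genes had them. Among these were the receptors LRP1, ITGAM, ITGB2 and NOTCH1, and on the regulator side YAP1, TEAD2, TEAD4, LATS1, LATS2, SRF, MRTFB, TGFBR1, TGFBR2, SMAD3 and AJUBA. ITGAV, the alpha-V integrin subunit through which several CCN proteins attach to cells, had no peak in any list.

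NOTCH1, a receptor reported to bind CCN3, had the most peaks of the 34 in each list and is named for that reason. Its basal Millipore count was 6, where the median protein-coding gene had 1 and the highest 10. For overexpressed Millipore it was 37 (median 2, highest 44). For basal Perseus it was 13 (median 1, highest 26), and for overexpressed Perseus 20 (median 1, highest 36). Consensus density, GC content and coding neighbours are not given for its window, and their part in these counts was not tested. Whether the counts have to do with CCN3 was not tested either. At the TSS itself, 0 of the 34 had a basal Millipore peak (1.02% of all genes) and 1 an overexpressed one (8.19%), and 3 had a basal (9.56%) and 8 an overexpressed Perseus peak (10.5%). The share of the 34 was above that of all genes in the overexpressed Perseus list and below it in the others, with no test. The 1 gene with a TSS peak in the same 3 lists as CCN5 was LATS2, a kinase that restrains YAP, a pattern found for 1.79% of all genes.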

How the data were processed

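The 4 peak lists analysed come from SF-1 ChIP-seq, with basal or overexpressed SF-1 and either antibody. According to the methods the authors mapped Illumina reads to hg19 with ELAND v2 (CASAVA 1.6 in the submitters' processing notes) and ran CisGenome v2 (SeqPeak) on pooled libraries with input as control. Input has no list and was not analysed here. The deposited score column is 1000 for every peak, and the deposited rank is a score of order whose underlying quantity is not stated. The other deposited columns hold positions, with starts on a grid of 50 bp. Read depth is not given in the sources used here, and a more deeply sequenced library can yield more peaks.

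Coordinates are 1-based on hg19. The reference was the GRCh37 sequence (the same build) with gene models of GENCODE 44, and 0 peaks passed a chromosome end. The TSS is the 5′ end of the gene body. Peaks were assigned by centre, and overlap means at least 1 bp. The background was the same count over all 20163 protein-coding genes or all peaks. The shares of each list that lay near CCN genes carry 95% Wilson intervals, and other shares carry none. The family, its lists and the alternatives were chosen with earlier results of these data known. Named were the 6 genes and, for genes with more than 6 peaks, the best-ranked, the nearest to the TSS and the shared ones; others are marked. The counting was tested on simulated data, where all 200 genes, 523 of 523 overlaps and 200 consensus copies were recovered. The simulated sequence around each copy held only A and T, and no simulated peak lay at the window edge. Chance matches and edge cases were therefore not tried. Alternatives covered distance, gene model, list length, overlap and consensus form. Python 3.11.15, samtools 1.23.1, pysam 0.24.0, pandas 2.3.3, numpy 2.4.6, scipy 1.17.1 and matplotlib 3.10.9 were used.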

Additional observations from a re-analysis of the deposited data

Results flagged for a closer look

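The number of peaks near CCN5 moved in opposite directions with SF-1 dosage in the 2 antibodies. It changed by 5 with the Millipore antibody (0 at basal, 5 at overexpressed dosage) and by -1 with the Perseus antibody (2 at basal, 1 at overexpressed dosage). Over the whole family the changes were 6 and -1. The difference between the antibodies was not tested, because each group is 1 list. Among all protein-coding genes, 18.3% had more Millipore and fewer Perseus peaks at overexpressed dosage. The site at the CCN5 start itself was present at both dosages with the Perseus antibody, and the Perseus peak that was lost is the one next to PABPC1L.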

How the results depend on the processing

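No paired analysis was possible because each group is 1 list of pooled libraries, and for the same reason no replicate could be left out. Alternatives within a factor of 1.5 count as unchanged. Of 100 alternative values, 74 stayed within it and 26 moved further. Only the changes with dosage could change sign, since the other values are counts. Of these changes 0 did so, although the Perseus change fell to 0 in the settings named below. Measuring from the TSS, counting any base of the peak, or using protein-coding transcripts alone changed no number of peaks or of genes with a peak. A distance of 500 kb gave 4 and 20 Millipore peaks (basal and overexpressed) and 10 and 8 Perseus peaks, for 3, 5, 4 and 5 of the genes in the same order, and changes with dosage of 16 for Millipore and -2 for Perseus. The shares of all genes with a peak were not computed at 500 kb. The comparison of the family with all genes therefore holds for 200 kb alone. At 100 kb the basal Perseus count was 1 and the Perseus change 0. In the better-ranked 50% of each list the overexpressed Millipore count was 4, the basal Perseus count 1, and the changes 3 and 0. With all lists at 4393 peaks the overexpressed Millipore count was 4 and the Millipore change 3. Requiring an overlap of 50% of the shorter peak left 0 sites shared by the overexpressed lists of the 2 antibodies, since their peaks at the CCN5 start share 39.8%. The core in place of the consensus was present in 2 overexpressed Millipore, 2 basal Perseus and 1 overexpressed Perseus peak, and with at most 1 mismatch the numbers were 1 basal and 4 overexpressed Millipore and 2 basal and 1 overexpressed Perseus. The comparison of nearest peaks in lists of equal length was chosen after seeing the data. Low counts limit every statement: with 11 peaks, a change of 1 or 2 peaks is a large part of each count.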

Other observations

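RefSeq promoter windows of the GRCh38.p14 build around the start site were at hand for CCN2 and CCN6. Neither held the SF-1 consensus or its core, and of 35116 such windows 2.55% held the consensus and 9.01% the core.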
